A study of Mus musculus with 6 samples.

Results

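Transcript abundance was described in bone marrow-derived macrophages of wild-type (WT) C57BL/6 mice that had been exposed to lipopolysaccharide (LPS) for 8 h. The 2 WT libraries were taken by their labels from a series of 6 libraries, in which 2 libraries each also came from macrophages lacking Ch25h and from macrophages lacking both liver X receptors (LXR); those 4 libraries were not used here. Bone marrow cells had been grown to day 7 in DMEM with 10% M-CSF, the growth factor that drives macrophage differentiation, and then received 100 ng/ml of LPS from E. coli 0111:B4. An Ovation kit turned 100 ng of RNA per sample into amplified cDNA for sequencing, per the labels' protocols. The labels do not say whether the 2 replicates came from separate mice or cultures, so their spread may be technical. Every cell analysed had received LPS, so the values below are levels in stimulated cells and none of them is a response to LPS. In a culture measured as bulk RNA, fewer cells that express a gene and less of its RNA per cell cannot be told apart. With 1 group there was no contrast to test. Values are therefore given for each library or as the mean ± SD of both (n = 2), and neighbouring genes are said to be separated only where both libraries of the higher gene lay above both of the lower.

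LPS is a component of the outer membrane of Gram-negative bacteria. Macrophages sense it through CD14, which hands it to the TLR4 and MD-2 (Ly96) complex. TLR4 signals through MyD88 to NF-kB and AP-1, which drive inflammatory cytokine genes, and through TRIF to IRF3, which drives interferon beta. Secreted interferon then acts on the same cells through factors that include STAT2 and IRF9 and induces a later set of genes, the interferon-stimulated genes, many of which carry an interferon-stimulated response element (ISRE) in their promoters.

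The promoters of 6 of the 20 genes with the highest level per length are shown because they hold, or lack, the motifs of these pathways. Each is the 250 bases before the transcription start in RefSeq (build GRCm38.p6), written 5′ to 3′ along the gene. Capitals mark matches on either strand to a TATA box (TATAAA), a kappa B motif, the binding motif of NF-kB (GGGAN, then TTN or NTT, then CC), or an ISRE (GAAA, then any NN, then GAAA). B2m lies at chr2:122147437-122147686 on the plus strand, Ifitm3 at chr7:141010745-141010994 on the minus strand and Saa3 at chr7:46715677-46715926 on the minus strand. The Rsad2 window is chr12:26456453-26456702 on the minus strand, that of Cxcl10 is chr5:92348890-92349139 on the minus strand and that of Il1b is chr2:129371140-129371389 on the minus strand.
B2m: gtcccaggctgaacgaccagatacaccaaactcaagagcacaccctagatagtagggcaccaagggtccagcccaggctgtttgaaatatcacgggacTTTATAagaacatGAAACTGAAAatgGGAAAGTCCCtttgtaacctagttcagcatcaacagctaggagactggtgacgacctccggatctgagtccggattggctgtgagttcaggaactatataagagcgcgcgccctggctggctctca
Ifitm3: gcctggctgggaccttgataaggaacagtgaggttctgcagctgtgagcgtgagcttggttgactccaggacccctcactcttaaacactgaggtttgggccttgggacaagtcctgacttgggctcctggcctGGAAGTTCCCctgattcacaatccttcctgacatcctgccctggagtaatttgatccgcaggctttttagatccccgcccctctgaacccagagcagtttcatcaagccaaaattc
Saa3: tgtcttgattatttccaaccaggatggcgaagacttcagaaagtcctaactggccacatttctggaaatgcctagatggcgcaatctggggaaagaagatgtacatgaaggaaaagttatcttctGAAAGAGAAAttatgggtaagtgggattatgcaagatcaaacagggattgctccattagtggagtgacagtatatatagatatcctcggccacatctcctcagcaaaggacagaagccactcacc
Rsad2: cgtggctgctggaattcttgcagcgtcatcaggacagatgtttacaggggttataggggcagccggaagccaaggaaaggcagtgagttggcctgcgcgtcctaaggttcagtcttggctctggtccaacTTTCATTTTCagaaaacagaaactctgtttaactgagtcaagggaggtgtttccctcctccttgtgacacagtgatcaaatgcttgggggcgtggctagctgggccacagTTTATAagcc
Cxcl10: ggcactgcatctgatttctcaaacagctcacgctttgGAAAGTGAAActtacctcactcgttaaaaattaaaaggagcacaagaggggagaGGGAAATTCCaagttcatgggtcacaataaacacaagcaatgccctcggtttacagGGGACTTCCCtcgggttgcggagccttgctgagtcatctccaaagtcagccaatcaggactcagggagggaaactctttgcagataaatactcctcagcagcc
Il1b: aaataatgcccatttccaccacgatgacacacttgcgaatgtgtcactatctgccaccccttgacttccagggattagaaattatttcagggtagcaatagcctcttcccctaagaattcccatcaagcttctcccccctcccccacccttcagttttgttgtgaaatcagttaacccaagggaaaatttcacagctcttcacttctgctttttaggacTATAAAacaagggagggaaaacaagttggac
B2m held an ISRE 139 bases and a kappa B motif 126 bases before the start (first base of each match). In Cxcl10 an ISRE at 213 bases was followed by kappa B motifs at 159 and 103 bases. Rsad2 and Saa3 each held an ISRE, at 120 and 125 bases, and Ifitm3 a kappa B motif at 116 bases. B2m and Rsad2 also held a TATA match on the opposite strand, at 152 and 10 bases. Il1b held a TATA box at 31 bases and no match to either of the other motifs in this window. The 6 promoters do not stand for all 20 genes, of which 17 had a promoter entry. In Lyz2, Ftl1, Il1rn, H2-K1, Fcer1g, Malat1 and a predicted model, not shown, no match to the marked motifs was found. A match is a string of letters, not a measured binding site. Only the strings defined above were searched, so windows without a match, that of H2-K1 included, may hold variants of these motifs.

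The library totals were 45343311 counts in replicate 1 and 42816660 in replicate 2. Levels are given in CPM (counts scaled to a library total of 1000000) or, for any comparison between genes, in TPM, the length-corrected unit, which divides each count by the summed exon length of the gene before scaling to the same sum. A length was found for 22856 of the 23337 genes in the table. In both libraries 15133 genes had at least 1 count and 10589 genes, 45.4%, reached 1 CPM. The gene lists below were chosen by role with earlier results of these data known. Their shares beside this 45.4% are therefore a description and not a test. The RNA was concentrated in few genes: the 10 most abundant by CPM held 11.7% and 11.6% of all counts, the 100 most abundant 32.4% and 32.0%, and 320 and 330 genes held 50%. Only 6 genes reached 10000 TPM in both libraries, while 141 reached 1000, 1432 reached 100 and 6209 reached 10. The median level was 0.673 TPM over all genes with a length and 15.1 TPM over those at 1 CPM or more in both.

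**Figure D1:**
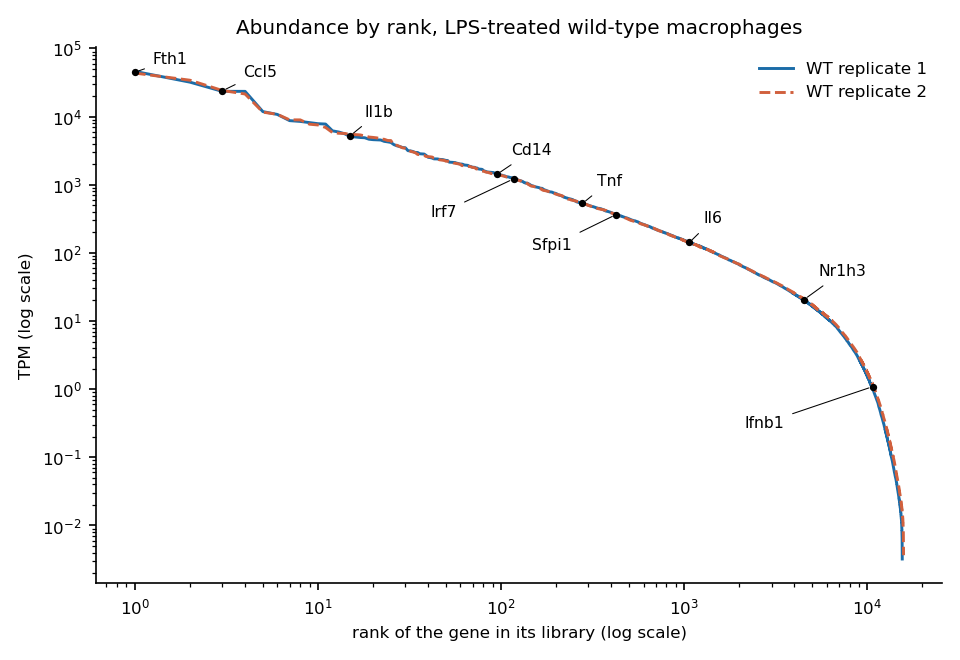
Level per length (TPM, log scale) against the rank of each gene in its library (log scale), with 1 line per WT library and black points at the mean of named genes. The lines overlie each other from Fth1 at 44728 TPM to Ifnb1 at 1.09 TPM, and part slightly below that.

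The 6 genes above 10000 TPM encode an iron store, an antigen-presenting subunit, a chemokine, lysozyme, actin and an antiviral membrane protein. Fth1, the heavy chain of ferritin (chr19:9980598-9985098), stood first at 46002 TPM in replicate 1 and 43455 TPM in replicate 2, and alone took 2.70% and 2.55% of the counts. B2m, the light chain of MHC class I, followed at 31964 and 34119 TPM. Ccl5 (chr11:83525778-83530518), a chemokine that draws T cells and monocytes, had 23454 and 24140 TPM. Lyz2, the lysozyme of myeloid cells, lay just below it at 23415 and 21436 TPM, and Actb, beta-actin, at 11819 and 11611 TPM. Ifitm3, which blocks the entry of viruses into the cytosol, was sixth at 10738 and 10780 TPM. These 6 genes had the same order in both libraries, and no library of any of them overlapped the next gene. Below them came Saa3, an acute-phase serum amyloid A protein, at 8826 ± 164 TPM and Ftl1, the ferritin light chain, at 8709 ± 317 TPM, which overlapped each other. The genes above 10000 TPM depended on the length used. With the shortest annotated coding transcript as the length, Il1rn had 37668 TPM and Saa3 23777 TPM on average. Only Fth1, at 67553 TPM, then lay above them among the genes named so far. B2m had 18955 TPM, Ccl5 13653, Lyz2 12871, Actb 10392 and Ifitm3 6173 TPM with that length. The other genes of the 20 highest were Il1rn, Ctss, Rsad2, Spp1, H2-K1, Cxcl10, Il1b, Fcer1g, a predicted model, Malat1, Ifit2 and Hmox1, between 7787 and 4765 TPM.

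Ordering by CPM instead favoured long transcripts, and 12 of the 20 highest genes were shared between the orders. By mean CPM, Fth1 was followed by the nuclear RNA Malat1 at 10951 and 14837 CPM and the ribosomal RNA precursor Rn45s at 12953 and 12717 CPM, and these overlapped. In replicate 1 Malat1 lay below Rn45s, Rsad2 and Lyz2. Rn45s has no length in the annotation and so no TPM. Ctsb, a lysosomal protease, had 6260 and 6018 CPM. Gpnmb, a glycoprotein of lysosome-rich macrophages, had 4781 and 4598 CPM and Cybb, the catalytic subunit of the phagocyte NADPH oxidase, 4052 and 3949 CPM. Mpeg1, a pore-forming protein of macrophages, had 3822 and 3696 CPM. All 4 were in the 20 highest by CPM and outside the 20 highest by TPM.

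Genes of iron handling and defence against oxidants were present throughout. All 21 members of that list reached 1 CPM in both libraries, against 45.4% of all genes, with a median of 420.1 TPM. Hmox1, heme oxygenase, which breaks down heme and releases its iron, had 4528 and 5001 TPM. Txn1 (thioredoxin) and Prdx1 (peroxiredoxin) followed at 3026 ± 83.3 and 2855 ± 240.5 TPM. The list ended with Tfrc, the receptor that imports iron-loaded transferrin, at 11.0 ± 0.225 TPM, and Nqo1, a quinone reductase, at 4.62 ± 0.601 TPM, so the 2 ferritin chains and the importer lay at opposite ends of the list. All 26 genes of the actin cytoskeleton list, which also holds tubulins and Vim, were detected at 1 CPM (median 480.3 TPM). Below Actb that list was led by Tmsb4x, which binds actin monomers, at 3764 ± 67.3 TPM. Of 25 genes in the glycolysis list, which also holds the glucose transporter Slc2a1, 22 reached 1 CPM (median 78.3 TPM). Gapdh led at 2109 ± 143 TPM with Ldha, lactate dehydrogenase, at 2078 ± 52.3 TPM, and these 2 overlapped. Eno1, the enolase of most tissues, had 2 counts in replicate 1 and 0 in replicate 2. Of the 50-base windows in its longest transcript, 72.2% also occur in transcripts of other annotated genes, and the sources used here do not state how the authors treated reads with several matches, so the low value of Eno1 is uncertain. Ftl1, with 78.9% of its windows shared, was among the highest genes all the same.

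Interferon-stimulated genes were high without exception in the list used. All 48 genes of this list reached 1 CPM in both libraries, against 45.4% of all genes, with a median of 800.4 TPM. The lowest of them, Oas1g, a sensor of double-stranded RNA, still had 232 and 240.5 TPM (54.7% of its windows are shared with close copies). Below Ifitm3 came Rsad2, the antiviral enzyme viperin, at 8161 and 6919 TPM and Ifit2, which binds foreign RNA, at 5100 and 4441 TPM. These 2 genes were lower in replicate 2 than in replicate 1, by ratios of 1.18 and 1.15 on the CPM scale. Ifi204, a DNA sensor, and Gbp2, a GTPase that attacks pathogen vacuoles, had 2761 ± 103 and 2712 ± 186 TPM and overlapped. Of the 100 genes with the highest TPM, 12 were in this list. All 11 guanylate-binding protein genes and all 9 Slfn genes in the table had counts, and 10 and 8 of them reached 1 CPM.

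The interferons themselves were low or had no counts. Of 18 interferon genes 14 had 0 counts in both libraries, against 28.7% of all genes, and none reached 1 CPM in both libraries. A count of 0 allows up to 0.0662 CPM in replicate 1 and 0.0701 CPM in replicate 2 (3 counts per library, counting error only). Ifnk, interferon kappa, was the highest by CPM at 38 and 55 counts, or 0.838 and 1.28 CPM, so it passed 1 CPM in replicate 2 alone. Ifnb1, interferon beta, had 12 and 15 counts, which is 0.265 CPM (exact 95% Poisson interval 0.137 to 0.462) and 0.350 CPM (0.196 to 0.578), or 0.938 and 1.24 TPM. Of the alpha genes, Ifna5 had 1 count in replicate 2 and the other 11 in the table had none, although these genes share sequence with each other. Ifng, interferon gamma, had 1 count in all. The receptor chains for interferon beta, Ifnar1 and Ifnar2, were at 201 ± 3.08 and 302 ± 2.11 TPM, and those for interferon gamma, Ifngr1 and Ifngr2, at 52.5 ± 0.790 and 199 ± 8.29 TPM.

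Among the cytokine lists the IL-1 family had the highest median, 27.9 TPM, and its most abundant transcript encoded the antagonist. Of 104 cytokine genes 49 reached 1 CPM in both libraries (47.1%), near the 45.4% of all genes, with a class median of 1.09 TPM. Il1rn, the receptor antagonist of IL-1 (chr2:24336853-24351494), had 7854 and 7720 TPM. Il1b, the secreted form of IL-1 that caspase-1 activates (chr2:129364570-129371139), had 5001 and 5460 TPM, below Il1rn in both libraries. Il1a had 961 and 999 TPM. Il18bp, a secreted decoy for IL-18, was at 198 ± 10.2 TPM and Il18 itself at 68.9 ± 9.23 TPM, so antagonist exceeded agonist in both of these pairs. Il1f9 (IL-36 gamma) and Il33 closed the detected part of the family at 27.2 ± 0.567 and 10.5 ± 2.70 TPM.

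Tnf, the founding member of the TNF superfamily, had 507 and 553 TPM. It was followed in its family by Tnfsf10 (TRAIL), a death ligand, at 124 ± 7.45 TPM and by Tnfsf9, a costimulator of T cells, at 77.4 ± 6.01 TPM. Of 18 members 9 reached 1 CPM, and Cd40lg, the T cell ligand of CD40, had 0 counts. Il6 had 132 and 151 TPM and led a list of 15 genes of which 7 reached 1 CPM (46.7%), also near that share. Csf3 (G-CSF) and Osm (oncostatin M) had 29.5 ± 0.331 and 27.7 ± 0.916 TPM. Csf1, the gene for M-CSF, had 19.5 ± 0.107 TPM in cells grown in added M-CSF, and Il3 had 0 counts.

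The IL-12 family differed by subunit. Ebi3, which pairs with Il27 to form IL-27, had 512 and 564 TPM and Il27 132 and 130.1 TPM. Il12b, the p40 subunit shared by IL-12 and IL-23, had 35.9 ± 1.31 TPM. Their partners were low: Il23a had 52 and 63 counts, 2.56 ± 0.450 TPM, and Il12a had 19 and 39 counts and did not reach 1 CPM in either library. Il10, which restrains macrophage activation, had 206 and 203 TPM and its relative Il19 had 93.5 ± 7.84 TPM, while Il20, Il24 and Il22 had 0 counts. Of 12 cytokines of the common gamma chain and T cell lists 3 reached 1 CPM, and Il15 led them at 177 and 191 TPM, ahead of Il7 at 1.92 ± 0.114 TPM. Il2, Il9, Il17a, Il17f and Il25 had 0 counts. Among growth factors, Spp1 (osteopontin) had 6170 and 5822 TPM, Grn (progranulin) 2973 and 2756 TPM, Mif 351 ± 24.1 TPM and Vegfa 74.5 ± 7.46 TPM.

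**Figure D2:**
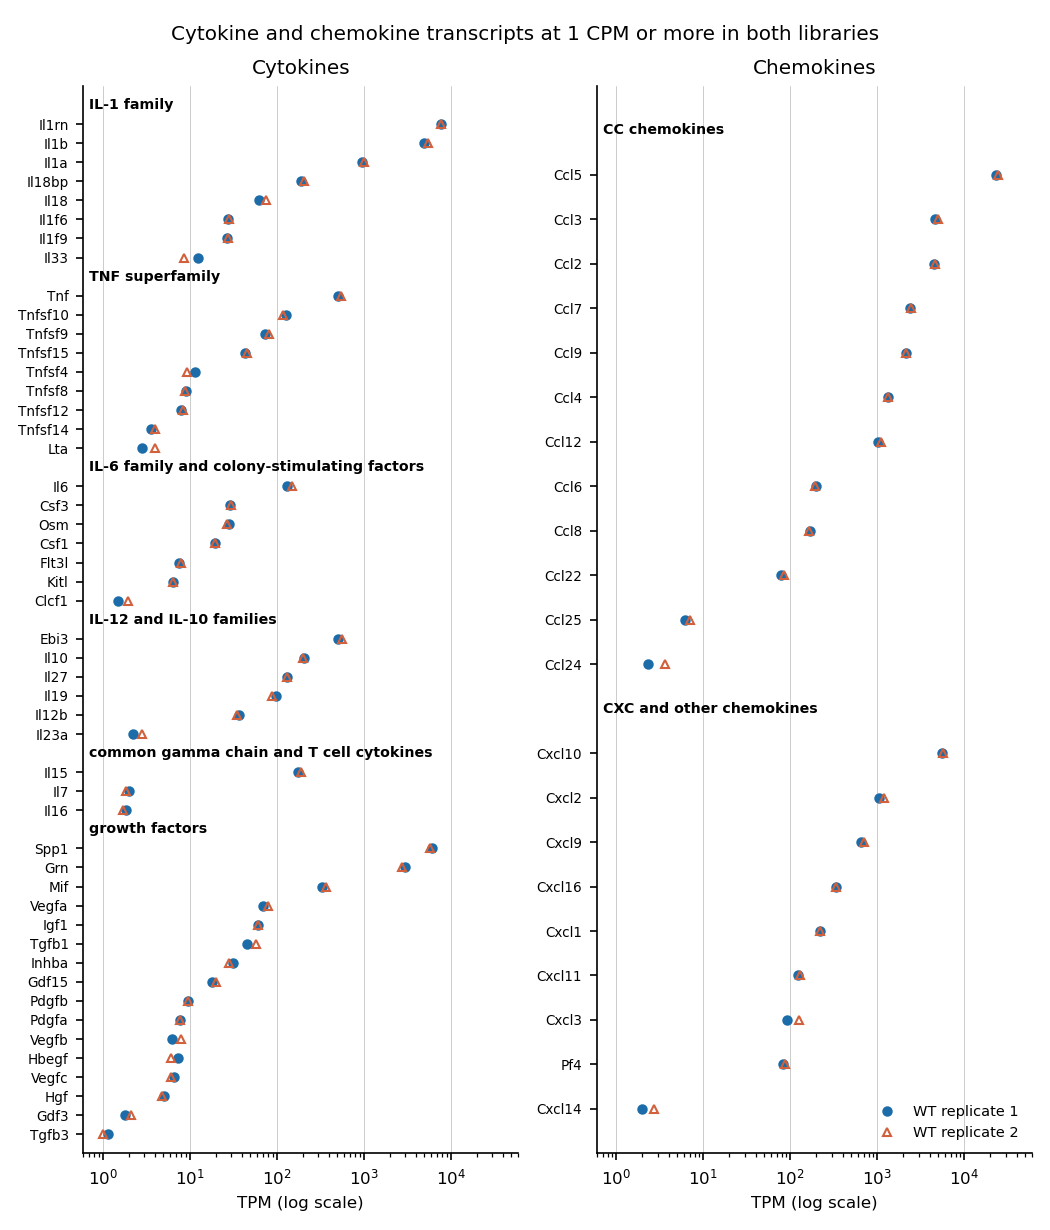
Level per length (TPM, log scale) of the 49 cytokine genes (left) and 21 chemokine genes (right) that reached 1 CPM in both WT libraries, grouped by family and ordered by mean, with a circle for replicate 1 and a triangle for replicate 2. Il1rn and Ccl5 lead their panels at 7787 and 23797 TPM, and the replicates of most genes lie on top of each other.

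Chemokine levels ran from the third place among all genes to 0 counts. Of 37 chemokine genes 21 reached 1 CPM in both libraries (56.8%, against 45.4% of all genes). The class median was 6.63 TPM, and 6 were among the 100 genes with the highest TPM. In the CC family Ccl5 was followed by Ccl3, a ligand of CCR1, at 4580 and 4939 TPM and Ccl2, the main attractant of monocytes, at 4547 and 4637 TPM, and these 2 overlapped. Ccl7 and Ccl9 had 2404 ± 17.3 and 2132 ± 14.7 TPM. Ccl25 and Ccl24 were the lowest still at 1 CPM, at 6.18 and 7.07 TPM and at 2.35 and 3.65 TPM, and Ccl19 and Ccl26 had 0 counts. In the CXC family the interferon-inducible T cell attractant Cxcl10 led at 5576 and 5682 TPM. Cxcl2, which draws neutrophils, had 1054 and 1181 TPM, Cxcl9 674 ± 29.6 TPM and the membrane-anchored Cxcl16 337 ± 3.05 TPM. Cxcl1, which shares the neutrophil receptor with Cxcl2, had 218 ± 1.93 TPM. Xcl1, made by lymphocytes, had 0 counts.

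Effector genes, a list of secreted proteins, intracellular enzymes, complement and acute-phase proteins, had a median of 348 TPM. In both libraries 36 of their 39 genes reached 1 CPM (92.3%, against 45.4% of all genes). Lyz2 and Saa3 led, followed by the lysosomal proteases Ctss at 7762 and 7524 TPM and Ctsd at 4647 and 4454 TPM. Irg1 (now Acod1), which makes the antimicrobial metabolite itaconate, had 4325 and 4674 TPM and overlapped Ctsd. Further members were chosen after their values were seen because they are the usual readouts of an LPS response. Ptgs2, which starts prostaglandin synthesis, had 1523 and 1580 TPM, Nos2, the inducible nitric oxide synthase, 893 and 908 TPM, and Lcn2, which binds bacterial siderophores, 1756 and 1987 TPM. Arg1, which competes with Nos2 for arginine, had 50.2 and 62.2 TPM. Chi3l3 (Ym1), a marker of alternative activation, had 3.20 ± 0.491 TPM and Mmp9, a gelatinase, had 65 and 61 counts.

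Ch25h, the cholesterol 25-hydroxylase that is deleted in another group of the series, is an interferon-inducible member of the same list. It had 3120 and 3076 counts, or 132 and 138 TPM, in the WT libraries, rank 1129 of the genes with a length. Its product 25-hydroxycholesterol activates the LXRs, which are encoded by Nr1h3 (LXR alpha) and Nr1h2 (LXR beta). Nr1h2 had 37.8 and 43.4 TPM and Nr1h3 19.4 and 21.9 TPM, so the beta form was higher in both libraries. Both receptors lay above the median of all detected genes and below Ch25h.

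Of the 189 surface receptor genes listed, 167 (88.4%) reached 1 CPM in both libraries, against 45.4% of all genes, with a median of 52.5 TPM. The listed genes were picked with earlier results known, so this share does not stand for receptors in general. Among the Toll-like receptors and their partners, Cd14 stood highest at 1352 and 1493 TPM, and Tlr4, the LPS receptor itself, was among the lowest still detected, at 28.1 and 30.6 TPM. Its partner Ly96 (MD-2) had 77.4 ± 8.43 TPM. The related pair Ly86 and Cd180, which modulates TLR4 signalling, had 544 ± 32.4 and 316 ± 0.0861 TPM. The nucleic acid sensors Tlr7 and Tlr3 had 246 ± 10.3 and 191 ± 0.577 TPM, while Tlr11, Tlr5 and Tlr12 did not reach 1 CPM. Of these 16 genes 13 did.

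Adaptor transcripts exceeded those of the receptors they serve, among the pairs named here. Fcer1g, the signalling chain shared by activating Fc receptors and several lectins, had 4886 and 5375 TPM. Of its partners, Fcgr1 had 1371 ± 18.2 TPM, Fcgr3 967 and 987 TPM and Fcgr4 926 ± 17.2 TPM, while the inhibitory Fcgr2b, which does not use it, had 343 ± 22.4 TPM. Clec4e (Mincle), a lectin for mycobacterial glycolipid that signals through the same chain, had 3485 and 3785 TPM and its neighbour Clec4d 1318 ± 64.6 TPM. With the shortest coding transcript as the length, Clec4e exceeded Fcer1g, at 7202 against 3266 TPM. Tyrobp (DAP12), the adaptor of Trem2, had 2271 and 2195 TPM against 204 ± 3.02 TPM for Trem2. The IgE-binding chain Fcer1a had 0 counts.

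Uptake receptors were led by Msr1, the class A scavenger receptor, at 1405 and 1365 TPM and the lysosomal Cd68 at 1245 and 1292 TPM. Cd36, which takes up oxidised lipoprotein, had 154 ± 0.555 TPM, and Cd163, the haemoglobin receptor, closed the detected part of the list at 1.02 ± 0.0608 TPM. All 25 integrin and adhesion genes reached 1 CPM, against 45.4% of all genes. Itgam (CD11b) led them at 1050 and 1059 TPM, followed by Emr1 (F4/80) at 773 and 804 TPM. C3ar1, the receptor of complement fragment C3a, led the G protein-coupled receptors at 1269 and 1222 TPM, followed by the formyl peptide receptors Fpr2 and Fpr1 at 557 ± 30.9 and 488 ± 44.9 TPM, which overlapped. Gpr84, a receptor for medium-chain fatty acids, had 470.0 ± 20.4 TPM.

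For 7 of 10 chemokines paired with a receptor the ligand far exceeded the receptor in the same libraries, the exceptions being Cxcl12, Ccl19 and Cx3cl1. Ccr1, a receptor of Ccl5 and Ccl3, had 12.9 and 14.1 TPM, and the Ccl5 level was 1768 times their mean. Ccr2, the receptor of Ccl2, had 5.16 and 6.16 TPM, and the Ccl2 level was 812 times that. Cxcr3, the receptor of Cxcl10 and Cxcl9, had 3.15 and 3.48 TPM, and Cxcr2, the receptor of Cxcl2, had 10 and 3 counts, 0.127 TPM. Il1b was likewise 604 times its signalling receptor Il1r1, which had 8.52 and 8.79 TPM. Il6ra had 8.71 TPM against 142 TPM for Il6.

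The order was reversed for the colony-stimulating factors. Csf1r, the M-CSF receptor, had 465 and 471 TPM against 19.5 TPM for Csf1. Csf2rb, the common chain of the GM-CSF, IL-3 and IL-5 receptors, had 567 ± 11.1 TPM, with 18.4% of its windows shared with Csf2rb2, while Csf2 had 7 counts in each library. Tnfrsf1b, the receptor also called p75, was the highest of 35 cytokine receptors at 1946 and 1868 TPM, above Tnf, while Tnfrsf1a, the death-domain receptor, was below it at 173 ± 0.975 TPM. Il10, at 205 TPM, was close to its shared receptor chain Il10rb at 196 TPM and above its specific chain Il10ra at 60.8 TPM. Il15, at 184 TPM, was close to its specific chain Il15ra at 156 TPM and below the common gamma chain Il2rg at 609.8 TPM. Il1rl1 and Il18r1, the specific receptors of IL-33 and IL-18, had 0.0583 and 0.0251 TPM. Tnfrsf11a (RANK), which directs osteoclast formation, had 99.9 TPM and its ligand Tnfsf11 0.0262 TPM.

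All 21 genes of antigen presentation and costimulation reached 1 CPM, against 45.4% of all genes, with a median of 199 TPM. Behind B2m came the class I heavy chains H2-K1 at 5929 and 5434 TPM and H2-D1 at 3869 and 3619 TPM. The checkpoint ligand Cd274 (PD-L1) and Slamf7, an adhesion receptor of activated leukocytes, had 1881 ± 31.5 and 1824 ± 27.8 TPM. Class II genes and Cd86 were named after their values were seen. H2-Ab1 and H2-Aa had 257 ± 3.05 and 199 ± 1.92 TPM, so class II chains lay well below class I. The 2 ligands of CD28 differed: Cd86 had 357 and 335 TPM and Cd80 3.34 and 3.72 TPM, the lowest of the list.

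The listed transcription factors had a lower median than the listed receptors. Of 175 genes 130 reached 1 CPM in both libraries (74.3%, against 45.4% of all genes). Their median was 11.3 TPM, and 0 were among the 100 genes with the highest TPM. The class includes 45 nuclear receptor genes with a median of 0.127 TPM, so its median depends on which lists it holds. List medians overlapped between the classes. The NF-kB list and the IRF and STAT list had 98.0 and 81.2 TPM. Chemokine and other G protein-coupled receptors had 13.3 TPM and Fc receptors 343 TPM. Irf7, which amplifies the interferon response, was the highest factor at 1228 and 1207 TPM. Stat2, which carries the interferon signal to the nucleus, had 744 and 745 TPM. Atf3, a stress-induced repressor of inflammatory genes, had 694 and 667 TPM. Stat2 no longer exceeded Atf3 in both libraries with the longest transcript or the shortest coding transcript as the length. Irf1 had 164 ± 9.65 TPM. Irf4, linked to alternative activation, had 1.69 and 1.15 TPM.

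Sfpi1 (now Spi1), which encodes the macrophage master regulator PU.1, led the lineage factors at 363 and 366 TPM, ahead of Zeb2 at 221 ± 1.95 TPM. Id2 and Irf8 overlapped at 139 ± 14.2 and 138 ± 10.2 TPM, and Cebpb had 126 ± 3.69 TPM. Gata6, the factor of peritoneal macrophages, and Pax5, that of B cells, had 0 counts. All 11 genes of the NF-kB list were detected, against 45.4% of all genes, with a median of 98.0 TPM. The highest was an inhibitor: Nfkbia had 326 and 324 TPM, above Nfkb1 at 168 ± 0.161 TPM. The inhibitors or modulators Nfkbiz, Nfkbie and Bcl3 followed at 145 ± 6.62, 141 ± 5.93 and 132 ± 4.46 TPM. Relb had 37.9 ± 0.572 TPM.

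Klf6 had 596 and 562 TPM and led the KLF and ETS list, in which the endothelial factor Erg had 0 counts. Hif1a, the hypoxia and glycolysis regulator, had 371 and 388 TPM and overlapped the oxidant-response factor Nfe2l2 (NRF2) at 362 and 386 TPM, while Epas1, a relative of Hif1a, had 0.861 and 0.833 TPM. Nuclear receptors had the lowest median of the factor lists, 0.127 TPM. Of 45 genes 20 reached 1 CPM (44.4%) and 14 had 0 counts (31.1%), near the 45.4% and 28.7% of all genes. Nr3c1, the glucocorticoid receptor, led at 119.6 and 119 TPM, above Nr1h2 and Nr1h3. Ppard and Nr1d2 had 16.4 ± 1.22 and 15.3 ± 1.29 TPM. The receptors for progesterone (Pgr) and estrogen beta (Esr2) had 0 counts in both libraries, as did Rxrg and Nr2f1.

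**Figure D3:**
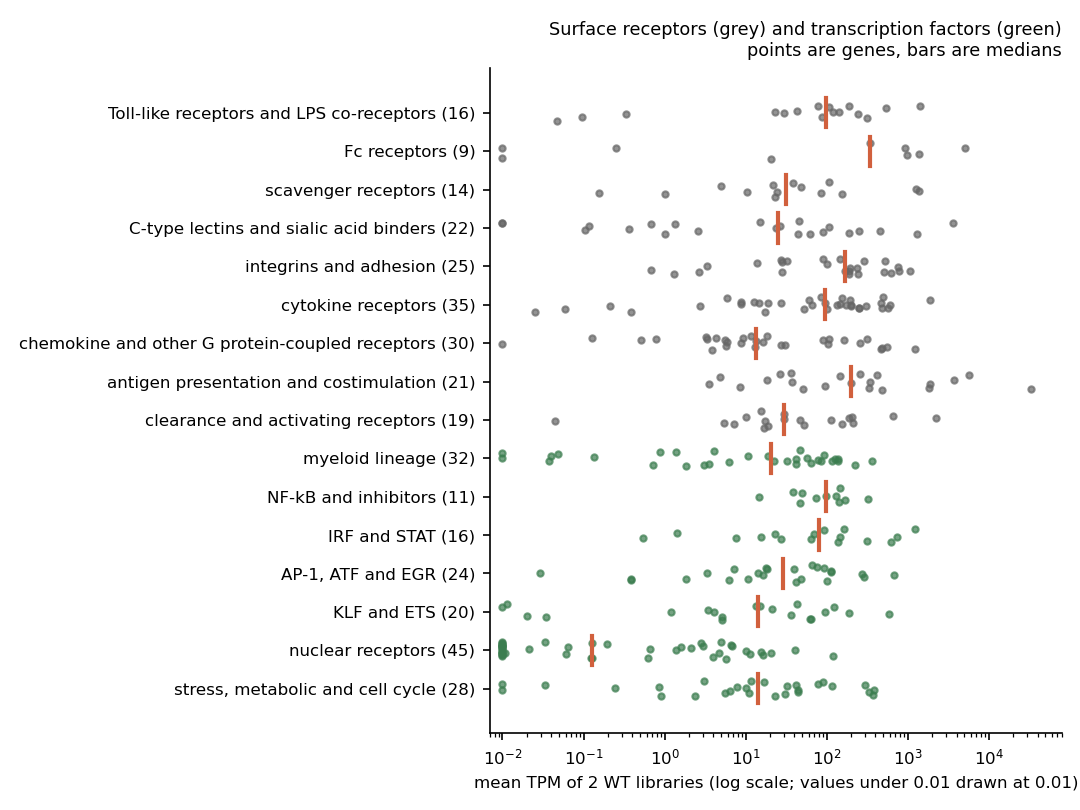
Mean level per length (TPM of both WT libraries, log scale, values under 0.01 drawn at 0.01) of every gene in the receptor lists (grey) and transcription factor lists (green), with list sizes in brackets and an orange bar at each list's median. Medians run from 343 TPM for Fc receptors to 0.127 TPM for nuclear receptors, and B2m at 33041 TPM is the point farthest right.

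Genes without a count included most receptors of smell and taste and most keratins. In both libraries 6706 genes had 0 counts, among them 5219 of 20355 protein-coding genes (25.6%). Of the sensory receptors, 1030 of 1123 olfactory receptor genes (91.7%), 200 of 208 type 1 and 116 of 126 type 2 vomeronasal receptor genes were at 0. The same held for 45 of 52 keratins, 51 of 52 keratin-associated proteins, 38 of 44 beta-defensins and 30 of 35 bitter taste receptors. Of 367 Zfp zinc finger genes 20 were at 0. In all, 6 olfactory receptor genes still reached 1 CPM, the highest being Olfr56 at 59.3 TPM. A count of 0 was also more frequent where a gene has near copies: 21.7% of the 17442 protein-coding genes with at most 10% of their windows shared were at 0, and 80.2% of the 364 genes with over 90% shared. No gene symbol in the table had the mitochondrial prefix mt-. The 13 mitochondrial protein-coding genes were therefore not analysed here, and the CPM and TPM totals include none under that prefix.

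The macrophage markers had a higher median than each of the 7 other marker lists. All 12 macrophage markers reached 1 CPM, against 45.4% of all genes, with a median of 921 TPM. They ran from Lyz2 down to Mertk, a receptor for dying cells, at 30.0 ± 0.800 TPM. None of 10 B cell markers and 2 of 14 T and NK cell markers reached 1 CPM, and Pax5, Blk, Cd3g and Prf1 had 0 counts. Of 11 neutrophil markers 3 reached it: S100a8 had 194 ± 1.51 TPM, Mmp8 14.6 ± 0.246 TPM and S100a9, the partner of S100a8, 13.6 ± 0.637 TPM. Of 10 dendritic cell markers 5 reached it, a share near the 45.4% of all genes, with a median of 1.29 TPM, led by Ccr7 at 13.2 ± 1.16 TPM and Xcr1 at 8.12 ± 0.531 TPM. Among mast cell and basophil markers Hdc, which makes histamine, had 72.4 ± 2.89 TPM, while the proteases Mcpt4 and Tpsb2 and the receptor chain Fcer1a had 0 counts. Pf4 of the megakaryocyte list had 85.6 ± 3.25 TPM and the alpha globins Hba-a1 and Hba-a2 0 counts, although 67.5% of the Hba-a1 windows are shared. Of 14 stromal and endothelial markers 7 reached 1 CPM, also near that share, with a median of 0.565 TPM, led by Kdr at 31.2 ± 1.88 TPM. Whether these transcripts came from macrophages or from a few other cells was not tested.

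The share of promoters with an ISRE, kappa B or AP-1 match was higher among the most abundant genes than over all promoters, as a description with no test. RefSeq promoters were matched for 82 of the 100 genes with the highest TPM and for 17129 genes with a length in all. An ISRE was found in 18 of those 82 promoters, against 6.36% of the promoters of the next 900 genes and 3.02% of all. The kappa B motif was in 9.76%, 3.11% and 1.78%, and the AP-1 motif (TGANTCA) in 17.1%, 5.65% and 6.27%. In the promoters of genes with 0 counts the ISRE, kappa B and AP-1 shares were 3.57%, 1.43% and 9.92%. For AP-1 that share lay above the 4.33% of all those at 1 CPM or more, so AP-1 matches did not simply follow abundance. A TATA box was in 20.7% of the 82 and in 23.1% of the promoters of genes with 0 counts, but in 6.37% of all those at 1 CPM or more. The GC box (GGGCGG) had the opposite order, with 41.5%, 17.9% and 60.1%. Of the 18 abundant genes with an ISRE, 6 were in the interferon-stimulated list, among them Rsad2, Gbp2 and Isg15, and the others included B2m, Saa3, Ctss, Spp1, Cxcl10, Cybb and Tnfrsf1b. In the whole interferon-stimulated list 18 of 40 promoters (45.0%) held one. The interferon genes themselves had it in 10 of 17, all of them alpha genes with at most 1 count, so the motif was not found only in abundant genes. Among the CXC chemokines 4 of 13 promoters held a kappa B motif, those of Cxcl1, Cxcl2, Cxcl3 and Cxcl10, and in the NF-kB list 3 of 8, those of Nfkb2, Rel and Nfkbia. Lyz2, Ctsd and Il1rn had none of the 3 motifs marked above. PU.1 (GAGGAAGT), C/EBP (TTGCNNAA) and CRE (TGACGTCA) matches were in 3.66%, 9.76% and 1.22% of the 82 promoters and in 2.31%, 8.90% and 2.07% of all. Ccl5, Actb and Hmox1 have no entry in the promoter table.

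**Figure D4:**
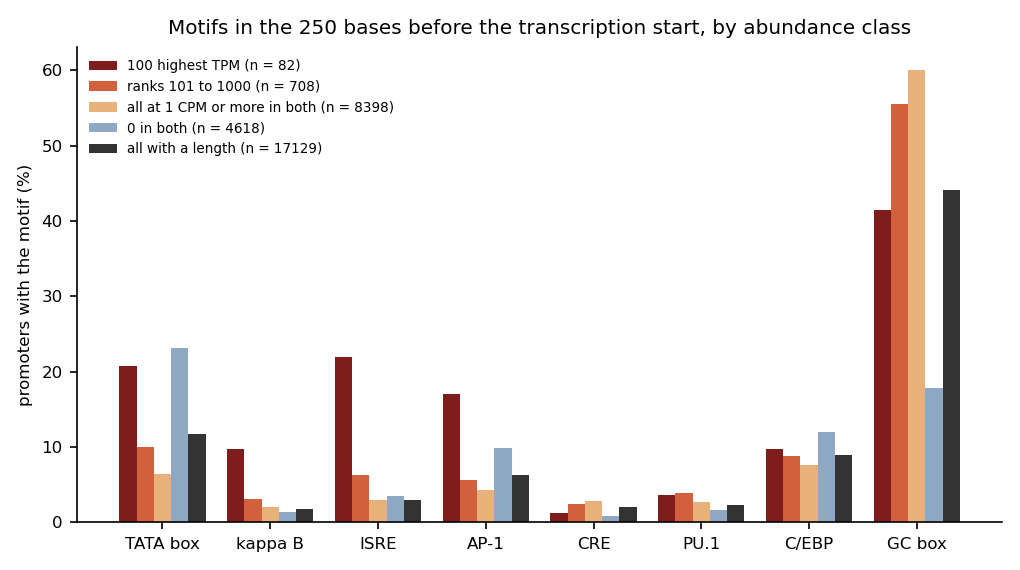
Share of promoters (%, 250 bases before the RefSeq start) that hold each motif on either strand, by abundance class, with the number of promoters in the legend. ISRE and kappa B bars are tallest for the 100 genes with the highest TPM, 18 and 8 of 82 promoters, while the TATA box is also frequent in genes with 0 counts, at 23.1%.

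TPM divides by exon length, so the ranking itself favours short genes, and 69 of the 100 highest genes by TPM were also among the 100 highest by CPM. The 100 genes with the highest TPM had a median exon length of 1957 bases, against 3332 bases for all at 1 CPM or more and 2707 bases for all with a length. They held 28.5% of the counts, and 98.0% of them were protein-coding, close to the 97.4% of all at 1 CPM or more. Ribosomal protein genes had a median of 291 TPM, and 76 of 83 reached 1 CPM (91.6%, against 45.4% of all genes).

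The 2 WT libraries differed by more than counting noise but by little in size. A chi-square of their counts over genes was 9.81 per degree of freedom (16630 degrees), which treats amplified reads as independent molecules, and the libraries were counted as 2 samples as labelled. Of 8106 genes with a mean of 5 CPM or more, 92.6% lay within 1.2-fold. Past 1.5-fold, 1 gene was higher in replicate 1 (0.0123%) and 51 were higher in replicate 2 (0.629%). None of them was in any of the gene lists. The gene higher in replicate 1 was Dcun1d5, of the cullin neddylation machinery, at 35.2 against 21.8 CPM. Those higher in replicate 2 had a median of 9.95 CPM, against 31.5 CPM for all 8106, and at most 60.2 CPM (Ncrna00085). Of the 51, 18 (35.3%) were not annotated as protein-coding or had no annotation match, against 153 of the 8106 (1.89%). Kcnq1ot1, a nuclear antisense RNA of an imprinted locus, had 23.0 and 48.0 CPM. Has1, a hyaluronan synthase, had 11.9 and 23.3 CPM and Fam196b 11.2 and 25.2 CPM.

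Some other long non-coding RNAs were also higher in replicate 2, of which Airn passed 1.5-fold, while others hardly differed. Apart from Malat1 they were chosen after their values were seen. Malat1 had 10951 and 14837 CPM, Neat1, the scaffold of paraspeckles, 541 and 757 CPM, and Xist, the RNA of the inactive X chromosome, 1184 and 1684 CPM. Airn, an imprinted antisense RNA, had 327 and 512 counts. Tug1, Gas5 and Snhg1 were 1.07, 1.06 and 1.03 times as high in replicate 2 as in replicate 1. The ribosomal RNA precursor Rn45s did not share this direction, at 12953 and 12717 CPM. The median fold of replicate 2 over replicate 1 was 1.02 for the protein-coding genes tested and 1.12 for the others. The source of this difference was not tested.

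**Figure D5:**
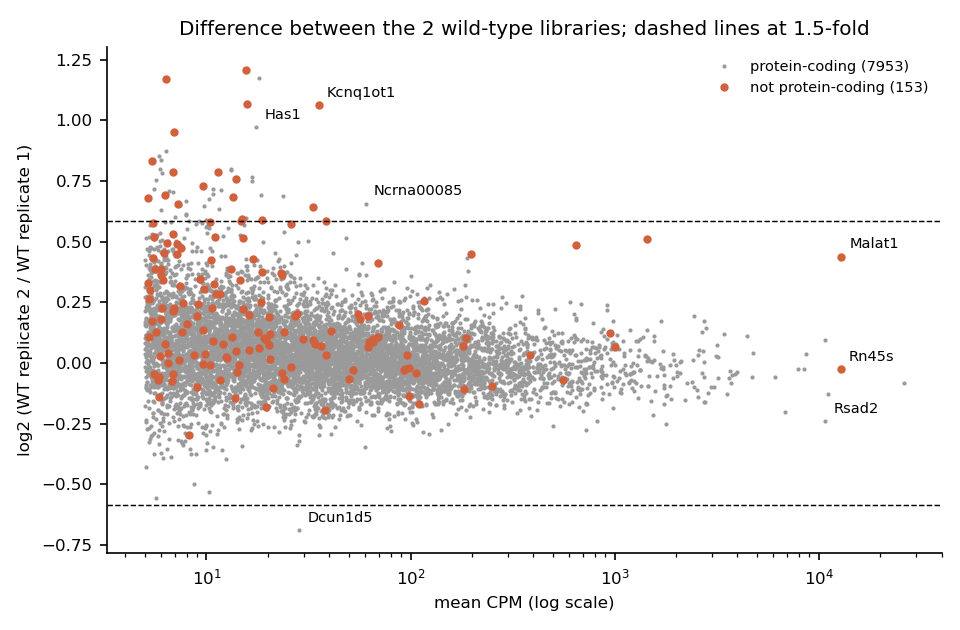
Log2 ratio of replicate 2 to replicate 1 in CPM against mean CPM (log scale) for 8106 genes with a mean of 5 CPM or more, with 153 genes not annotated as protein-coding in orange and dashed lines at 1.5-fold. Points past the upper line (51) far outnumber those past the lower line (1, Dcun1d5), and Malat1 lies above most genes of its level.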

How the data were processed

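RNA-seq of 2 WT libraries was analysed. The authors deposited raw read counts per gene symbol, unnormalized. The submitters' processing notes name CASAVA, STAR 2.3.0, HTSeq and mm10. They do not state the annotation, the counting mode or the strandedness, so reads of overlapping, antisense or near-identical genes may sit with either gene. RNA was amplified, so intervals and limits for low counts cover counting error only.

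CPM used the total over all gene rows. TPM used the summed exon length in GENCODE M21 (GRCm38), matched by symbol for 20953 genes and by older symbol for 1903. The 481 unmatched genes held 1.66% and 1.65% of the counts. Detection meant 1 CPM or more in both libraries. The steps were tested on simulated data.

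The members and gene lists were chosen with earlier results of these data known. Genes were named as the 20 highest by CPM and by TPM, in each list up to 5 highest, 2 lowest at 1 CPM and 5 at 0, the series' targeted genes, the 10 extreme replicate ratios in each direction, and ligand or receptor partners; predicted models were not described. Not every gene so named is described. Python 3.11.15 was used throughout, with edgeR 4.0.16 (TMM) and DESeq2 1.42.0 (RLE) in R 4.3.3 for other scalings. Other lengths, thresholds and single replicates were also tried.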

Additional observations from a re-analysis of the deposited data

How the results depend on the processing

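No paired analysis was possible because only 1 group was analysed. Detection counts, the number of genes at 0 and the class counts stayed within 1.5 times under each setting tried, except cell type markers, of which 33 reached 1 CPM and 21 reached 5 CPM. Counts for the single lists within the classes depended more on the threshold. At 5 CPM 7 of them moved by over 1.5 times and 31 did not, and at 0.5 CPM 4 moved and 34 did not. The share of counts in the 10 most abundant genes was 11.1% without Rn45s and 10.5% over protein-coding genes only, and that in the 100 most abundant 31.5% and 31.0%. Genes higher in replicate 1 past 1.5-fold numbered 3 with TMM scaling, 3 with RLE scaling, 31 at a mean of 1 CPM and 0 at a mean of 50 CPM, and those higher in replicate 2 numbered 297 at a mean of 1 CPM and 1 at 50 CPM.

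Length was the choice that moved levels most. With the longest transcript in place of the summed exons, the medians became 9.32 TPM for chemokines, 333 for effectors, 50.2 for receptors and 12.2 for transcription factors. With the shortest annotated coding transcript, which can be a fragment, they became 228 for effectors, 57.3 for receptors, 9.82 for transcription factors, 444 for cell machinery and 0.223 for cell type markers. The 20 highest genes by TPM shared 19 members with the longest and 15 with the shortest length. Of 33 stated orders between genes, 32 and 30 held in both libraries. The shortest length moved 195 of the 248 genes compared by over 1.5 times, with a median ratio of 0.578, and the longest moved 4. Leaving out a replicate gave medians of 11.1 to 11.8 TPM for transcription factors, 535 to 541 for cell machinery and 0.253 to 0.270 for cell type markers. With 2 libraries, no error beyond their spread can be given, and levels under 3 counts cannot be told from 0.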

Other observations

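Mouse sex-linked transcripts were looked at after the other values were seen. Of 16 Y chromosome genes, 13 had 0 counts in both libraries, and the other 3 held 1 count in replicate 1 and 7 in replicate 2. Xist had 53676 and 72120 counts. The labels used here give no sex for these cells.

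A few cholesterol efflux genes were also chosen after their values were seen. Abca1, which exports cholesterol to apolipoprotein A-I, had 171 and 183 TPM and Abcg1, which exports it to HDL, 103 and 93.6 TPM. Apoe, the apolipoprotein that macrophages secrete, had 917 and 869.6 TPM. Their common regulators Nr1h2 and Nr1h3 were at 40.6 and 20.6 TPM.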
